A study of Rattus norvegicus with 8 samples.

Results

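Neurexins, neuroligins and Lrrtm proteins are adhesion molecules that meet across the synaptic cleft. The genes described here are the neurexin genes Nrxn2 and Nrxn3, the neuroligin genes Nlgn1 and Nlgn3, and Lrrtm1, Lrrtm2, Lrrtm3 and Lrrtm4. These genes were chosen by family, with earlier results of these data known. They are 8 of the 28909 gene symbols in the count table, where Lrrtm1 is written in capitals, and all 8 were among the 14309 genes with enough reads to be tested. The RNA came from primary hippocampal neurons of Sprague-Dawley rat embryos, plated on the upper side of porous filter inserts. Somata stay on the upper side, and processes grow through to the lower side. The sources used here do not say that the upper side, named somata, was free of processes. Cultures received picrotoxin (PTX), which blocks GABA-A receptors, for 48 h from day 18 to day 20 in vitro, or vehicle only (control). Total RNA of each side was depleted of ribosomal RNA before sequencing, and each of the 4 conditions has 2 libraries. Astrocyte transcripts were found on both sides of the filter, so neither compartment is purely neuronal.

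Neurexins are presynaptic receptors that are made as long and short isoforms from separate promoters and are extensively spliced. Neuroligins and Lrrtm proteins are postsynaptic and bind neurexins, and Lrrtm proteins, which carry leucine-rich repeats outside the cell, act mainly at excitatory synapses. Their transcripts are known from hippocampal neurons, and the counts used here sum all isoforms of a gene.

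Library totals ran from 12290890 to 18455662 counts. Transcripts of the mitochondrial genome took 22.6 to 26.7% of the counts in somata and 68.5 to 72.5% in processes, which left 9517542 to 11227599 counts per somatic library and 4702054 to 5491237 per process library for all other genes. The 8 genes had between 26 reads (Lrrtm4 in a process control library) and 3312 reads (Nrxn2 in a somatic control library). Levels are CPM, counts per 1000000 counts after TMM scaling, which expresses each library relative to its typical gene, and they were not corrected for transcript length, so they compare libraries within a gene and not genes with each other. Among marker genes of other cells, the summed level of 8 astrocyte markers was 4092 to 4482 CPM in somatic control libraries and 13330 to 14940 CPM in process control libraries. Of these markers 4 were higher and 2 lower in processes of control cultures, against 25.8% and 21.9% of all tested genes. Gfap, an astrocyte filament gene, made up much of the sum. None of the 6 microglial markers had enough reads to be tested, and their sum did not exceed 1.91 CPM in any library, with none of them at 0 in every library.

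In control cultures, transcripts of most of these adhesion genes were lower in the process compartment than in the somatic compartment, and Nrxn2 was the exception among the 8. The levels of Lrrtm4, Nrxn3 and Lrrtm1 in processes were 32.9%, 38.6% and 39.1% of those in somata, while that of Nrxn2 was 145%. Lrrtm2 and Lrrtm3 were also lower in processes, and Nlgn1 and Nlgn3 did not pass the test. In edgeR's quasi-likelihood test with Benjamini-Hochberg adjustment over all tested genes, 5 of the 8 genes were lower and 1 was higher at an adjusted p under 0.05, against 21.9% lower and 25.8% higher among all tested genes. A fall of more than 1 on the log2 scale was called for 3 of the 8, against 7.58% of all tested genes. With the replicate number added to the fit as a block, 6 were lower and 1 higher, against 28.0% and 29.8% of all tested genes. The split moved with the scaling, to 7 lower and 1 higher with upper quartile scaling, 7 lower and 0 higher with counts outside the mitochondrial genome, and 8 lower with total counts. The median log2 difference of the 8 genes was -0.74 and that of all tested genes was -0.05. Control libraries of the compartments did not overlap for 7 of the 8 genes, as for 74.9% of all tested genes. Of neuron-type markers, 5 of 5 tested inhibitory ones and 3 of 5 excitatory ones were lower in processes, with 0 higher in either list. Their median log2 differences were -0.81 and -0.79. Of 6 general neuronal markers 2 were lower and 3 higher, with a median of 0.38. The shares of all tested genes were 21.9% lower and 25.8% higher. How far fewer neuronal processes of a type, or less of a transcript per process, set the levels of the 8 genes cannot be told apart in bulk RNA. The part of the neuronal markers and of the astrocyte transcripts was not tested.

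**Figure D1:**
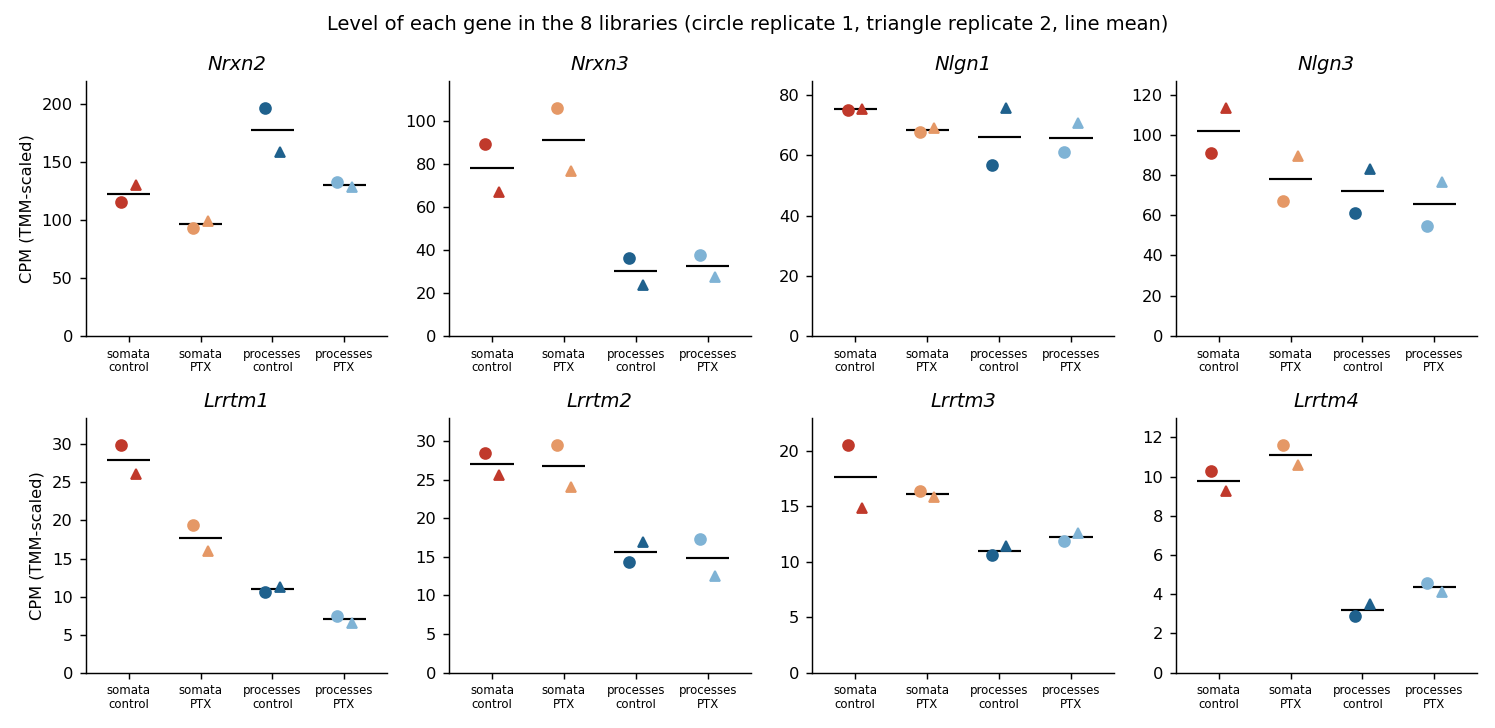
Level of each of the 8 genes in CPM (vertical axis, TMM-scaled, from 0, with its own scale for each gene) in the 4 conditions (horizontal axis). Circles are replicate 1, triangles are replicate 2 and lines are means of 2 libraries. Nrxn2 is highest in process control libraries, Nrxn3 and the Lrrtm genes are lower in processes than in somata, and Lrrtm1 is lower with PTX on both sides of the filter.

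The neurexin genes differed in opposite directions between the compartments. Nrxn2 was measured at 115 and 129.7 CPM in somatic control libraries and at 196 and 158 CPM in process control libraries. Both process libraries lay above both somatic libraries, and the log2 difference was 0.53 (standard error 0.125, adjusted p = 0.00539). Nrxn3 was measured at 89.1 and 66.6 CPM in somata and at 36.1 and 23.8 CPM in processes. Here the process libraries lay below the somatic ones, with a log2 difference of -1.37 (standard error 0.237, adjusted p = 0.000833). The number of Nrxn3 reads per Nrxn2 read within a library, which no scaling affects, was 0.773 and 0.514 in somata and 0.184 and 0.151 in processes. The sign for Nrxn2 depends on the scaling. It was 0.07 (adjusted p = 0.622) when libraries were scaled by their counts outside the mitochondrial genome and -1.29 when scaled by total counts, where the median of all tested genes was -0.51 and -1.86. Relative to that median, Nrxn2 stood 0.571 to 0.582 higher under the 5 scalings tried. Scaling a library shifts all its genes alike, so this offset could hardly differ and does not check the sign. Without replicate 1 of somata control, its difference was 0.45 with an adjusted p of 0.0532.

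Neither neuroligin gene passed the test between the compartments. Neuroligin 1, the product of Nlgn1, is known mainly from excitatory synapses, and neuroligin 3 from excitatory and inhibitory ones. Nlgn1 was measured at 75.1 and 75.5 CPM in somatic control libraries and at 56.8 and 75.6 CPM in process control libraries. One process library lay below and the other just above both somatic libraries, and the log2 difference of -0.19 (95% interval -0.49 to 0.12, adjusted p = 0.286) did not pass. Without replicate 2 of processes control, which left the low library, it was -0.41 with an adjusted p of 0.0372. Nlgn3 was measured at 91.1 and 113 CPM in somata and at 61.3 and 82.8 CPM in processes. The groups did not overlap, and the log2 difference was -0.50 (standard error 0.204, adjusted p = 0.0628). In the blocked fit the same difference passed, with an adjusted p of 4.78e-05. Its difference was -0.57 between the replicate 1 libraries and -0.45 between the replicate 2 libraries. With counts outside the mitochondrial genome as the scaling, both genes were lower in processes, with log2 differences of -0.64 for Nlgn1 (adjusted p = 0.00272) and -0.96 for Nlgn3 (adjusted p = 0.00228), and both also passed with upper quartile scaling (-0.39 and -0.71).

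All 4 Lrrtm genes were lower in processes of control cultures. Lrrtm1 was measured at 29.9 and 26.1 CPM in somata and at 10.6 and 11.3 CPM in processes, a log2 difference of -1.36 (standard error 0.155, adjusted p = 4.82e-05). Lrrtm4 had 242 and 236 reads in somata and 26 and 30 reads in processes, which were 10.3 and 9.24 CPM against 2.9 and 3.52 CPM. This was the lowest ratio among the 8 genes, with a log2 difference of -1.60 (standard error 0.192, adjusted p = 6.6e-05). Lrrtm2 was measured at 28.5 and 25.7 CPM in somata and at 14.4 and 16.9 CPM in processes, a log2 difference of -0.79 (standard error 0.174, adjusted p = 0.00364). Lrrtm3 was measured at 20.5 and 14.8 CPM in somata and at 10.6 and 11.4 CPM in processes, a log2 difference of -0.68 (standard error 0.174, adjusted p = 0.00795). In none of the 4 genes did a process library reach the lower somatic library. The Lrrtm3 difference no longer passed without replicate 1 of somata control (-0.43, adjusted p = 0.0795) or without replicate 1 of processes control (-0.63, adjusted p = 0.0546), while Lrrtm1, Lrrtm2 and Lrrtm4 passed with any of the 8 libraries left out.

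In PTX-treated cultures the compartments were compared in the same way with a separate set of libraries. Of the 8 genes, 4 were lower in processes and 1 was higher, against 24.0% lower and 25.7% higher among all tested genes, and 3 fell by more than 1 on the log2 scale, against 9.67%. The blocked fit called 6 lower and 1 higher, against 29.6% and 30.0%. The log2 difference was -1.49 for Nrxn3 (standard error 0.235, adjusted p = 0.000423), -1.35 for Lrrtm4 (standard error 0.178, adjusted p = 0.000125), -1.34 for Lrrtm1 (standard error 0.165, adjusted p = 7.62e-05) and -0.85 for Lrrtm2 (standard error 0.174, adjusted p = 0.00216). Nrxn2 was higher by 0.44 (standard error 0.126, adjusted p = 0.0143), and not past the threshold with upper quartile scaling (0.26, adjusted p = 0.0969), without replicate 1 of somata PTX (adjusted p = 0.0865) or without replicate 1 of processes PTX (adjusted p = 0.061). Its sign turned to -0.017 (adjusted p = 0.91) with counts outside the mitochondrial genome and to -1.39 (adjusted p = 6.08e-07) with total counts. Relative to the median gene Nrxn2 stood 0.483 to 0.488 higher under the 5 scalings, an offset that scaling could hardly change. Lrrtm3 (-0.40, adjusted p = 0.0713) and Nlgn3 (-0.25, adjusted p = 0.329) did not pass, and with the replicate block both did, with adjusted p = 0.0257 and 0.0194. Nlgn1 differed by -0.05 (adjusted p = 0.775). Libraries did not overlap for 6 of the 8 genes, as for 75.9% of all tested genes.

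The other proteins of these adhesion complexes were taken from lists of synapse organizers and their partners. Postsynaptic organizers outside the 3 families were mostly lower in processes of control cultures, with 19 of 26 tested genes lower and 1 higher, against 21.9% lower and 25.8% higher among all tested genes. Slitrk3 (-1.61, adjusted p = 3.14e-05) and Slitrk1 (-1.32, adjusted p = 1.98e-05), whose proteins bind presynaptic receptor phosphatases, and Lrfn5 (-1.28, adjusted p = 8.71e-05) had the largest falls on the log2 scale. Clstn2, a calsyntenin gene, was the one that was higher (0.53, adjusted p = 0.00518). Of 19 tested genes for presynaptic ligands and receptors, 8 were lower and 2 higher, against the same shares of all tested genes. Lower were the secreted C1ql2 (-1.48, adjusted p = 0.00161) and Cbln2 (-1.03, adjusted p = 0.0361), which bridges neurexins to glutamate receptors of the delta class, and the receptor phosphatase Ptprd (-0.97, adjusted p = 0.00227). In process control libraries C1ql2 had only 22 and 13 reads and Cbln2 only 23 and 17. The 19 genes include Cbln1 and Cbln4, which met the read minimum through the somatic libraries alone. Without these, 8 of 17 were lower and 2 higher. Ntng2 (1.13, adjusted p = 0.00168) and the latrophilin gene Adgrl1 (0.54, adjusted p = 0.00326) were higher.

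Intracellular partners, proteins linked directly or through other proteins to the tails of neurexins and neuroligins, had the opposite balance with TMM scaling. Of 23 tested genes, 14 were higher in processes of control cultures and 4 were lower, again against 25.8% and 21.9% of all tested genes. With counts outside the mitochondrial genome 9 were higher and 7 lower, and with total counts 2 were higher and 16 lower. Relative to the median of all tested genes, the median of this list was higher by 0.673 to 0.679 under the 5 scalings, and that of the other postsynaptic organizers stood at -0.71 to -0.70. Scaling a library shifts all its genes alike, so these offsets could hardly differ and do not check the balance of calls. The postsynaptic scaffold genes Shank1 (3.31, adjusted p = 1.22e-06), Shank3 (3.14, adjusted p = 6.92e-07) and Dlg4 (1.78, adjusted p = 1.12e-05) had the largest rises on the log2 scale. Gopc (-0.54, adjusted p = 0.0152), Dlg3 (-0.53, adjusted p = 0.0139) and Apba2 (-0.42, adjusted p = 0.00788) were among the lower ones. The list medians were 0.63 for the intracellular partners, -0.75 for the other postsynaptic organizers, -0.45 for the presynaptic ligands and receptors and -0.74 for the 8 genes (TMM scaling). Of 7 genes for proteases that cut neuroligins or neurexins and for their surface inhibitors, Psen2 (-1.37, adjusted p = 0.000313) and Bace1 (-0.59, adjusted p = 0.00348) were lower and none was higher (the same counts with PTX). Of 8 splicing regulators of neurexin transcripts, Rbfox3 (0.52, adjusted p = 0.0108), which is also a marker in the neuronal list, and Khdrbs3 (0.50, adjusted p = 0.00363) were higher and Ptbp1 (-0.61, adjusted p = 0.00503) was lower. These 2 short lists moved most with the fit. With the block, 1 protease or inhibitor was higher and 3 were lower, and with counts outside the mitochondrial genome 5 were lower, and so were 4 splicing regulators with none higher.

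**Figure D2:**
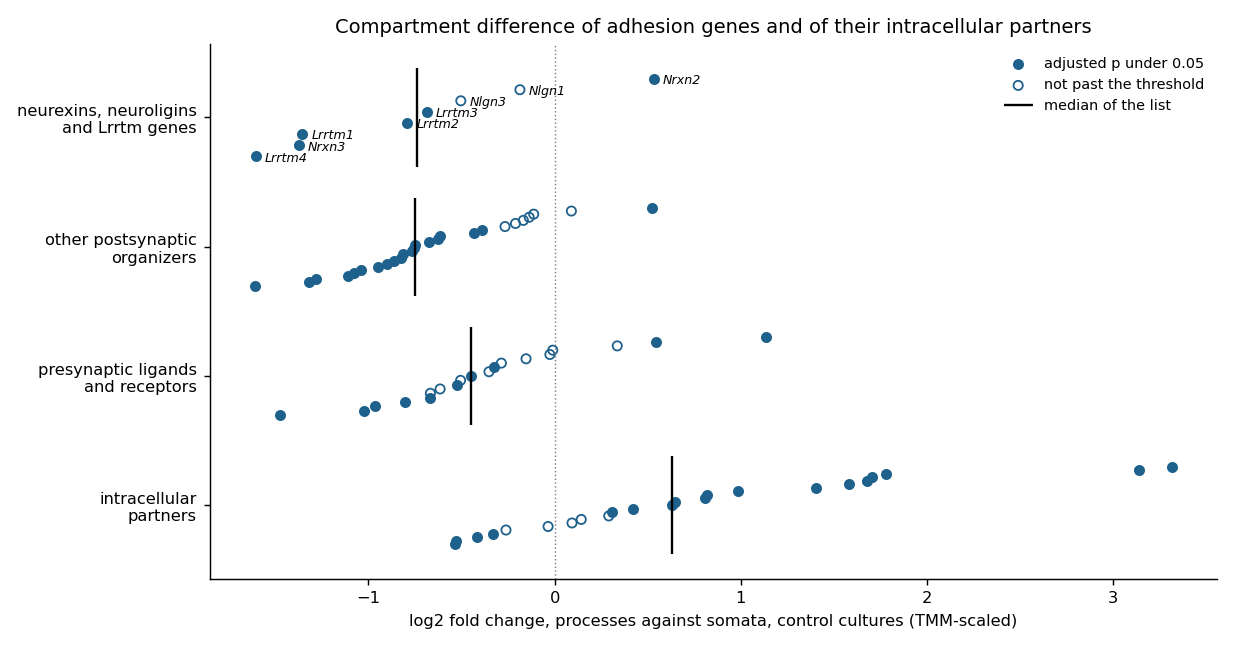
Log2 difference of processes against somata in control cultures (horizontal axis, TMM-scaled) for the 8 genes and the tested genes of 3 lists. Each point is a gene, filled where the adjusted p is under 0.05, and the vertical line of each list is its median. The medians are -0.74 for the 8 genes, -0.75 and -0.45 for the other surface proteins, and 0.63 for the intracellular partners.

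In PTX-treated cultures the balance of the lists had the same signs with TMM scaling, against 24.0% lower and 25.7% higher among all tested genes. Of the other postsynaptic organizers, 13 were lower and 1 was higher, again Clstn2 (0.80, adjusted p = 0.000473). Slitrk3 (-1.45), Clstn3 (-1.35) and Slitrk1 (-1.26) had the largest falls, with adjusted p between 2.48e-05 and 8.18e-05. Among the presynaptic ligands and receptors, 11 were lower and 3 were higher. The lower ones include the cerebellins Cbln1 and Cbln4, which had 4 to 11 and 7 to 16 reads in process libraries and met the read minimum through the somatic libraries alone. Without them, 9 of 17 were lower and 3 higher, with the secreted C1ql3 (-1.36, adjusted p = 0.00112) among the lower. Leaving out replicate 1 of somata PTX or replicate 2 of processes PTX left 7 and 8 calls in that list. Of the intracellular partners, 11 were higher and 4 lower, led by Shank3 (2.80, adjusted p = 8.38e-07), Shank1 (2.80, adjusted p = 2.54e-06) and Lin7c (1.77, adjusted p = 3.36e-06). With counts outside the mitochondrial genome 9 were higher and 7 lower, and with total counts 2 and 18.

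A PTX effect in somata was called for Lrrtm1, which was lower. Its level was 29.9 and 26.1 CPM in control libraries and 19.4 and 16.0 CPM in PTX libraries. Both PTX libraries lay below both control libraries, and the PTX level was 63.5% of the control level, a log2 change of -0.66 (standard error 0.137, 95% interval -0.96 to -0.35, adjusted p = 0.0257). The change was -0.62 between the replicate 1 libraries and -0.70 between the replicate 2 libraries. This was 1 of 8 genes called lower and 0 higher, against 3.59% of all tested genes called in either direction and 1.50% called lower. The median change of the 8 genes was -0.14 on the log2 scale. Leaving out any of the 4 somatic libraries ended the Lrrtm1 call, with changes between -0.81 and -0.53 and adjusted p between 0.054 and 0.192 in those fits, and with the replicate block the adjusted p was 0.000105.

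Of the other 7 genes in somata, none passed without the block, and libraries did not overlap for Nrxn2, Nlgn1, Nlgn3 and Lrrtm4. With Lrrtm1 these were 5 of 8, as for 49.0% of all tested genes. Nrxn2 was measured at 93.3 and 98.9 CPM with PTX, against 115 and 129.7 CPM in control, a log2 change of -0.35 (standard error 0.125, adjusted p = 0.184). Nlgn3 was measured at 67.1 and 89.3 CPM with PTX, against 91.1 and 113 CPM, a log2 change of -0.39 (standard error 0.199, adjusted p = 0.404). With the replicate block both passed, with adjusted p = 0.02 for Nrxn2 and 0.00258 for Nlgn3. The blocked fit thus called 3 of the 8 genes lower, against 6.79% of all tested genes lower and 14.0% in either direction.

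Nrxn3 was measured at 106 and 76.6 CPM in somata with PTX and Nlgn1 at 67.7 and 68.9 CPM. Their log2 changes of 0.23 (95% interval -0.26 to 0.71) and -0.14 (95% interval -0.44 to 0.16) both had an adjusted p of 0.72. Both intervals span 0. The levels with PTX were 29.5 and 24.1 CPM for Lrrtm2, 16.4 and 15.9 CPM for Lrrtm3, and 11.6 and 10.6 CPM for Lrrtm4. The log2 change was -0.01 for Lrrtm2 (95% interval -0.36 to 0.33, adjusted p = 0.984), -0.13 for Lrrtm3 (95% interval -0.47 to 0.21, adjusted p = 0.79) and 0.19 for Lrrtm4 (95% interval -0.14 to 0.51, adjusted p = 0.646). The difference between the Lrrtm1 change and that of another Lrrtm gene was not tested.

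In processes, no PTX effect passed for any of the 8 genes in the quasi-likelihood test, against 3.74% of all tested genes. At an unadjusted p under 0.05 there were 2, Nrxn2 and Lrrtm1, against 16.6% of all tested genes. DESeq2 called 0 of the 8 (4.58% of all tested genes) and edgeR's likelihood ratio test called 2 (6.63%). Nrxn2 was measured at 196 and 158 CPM in control and 133 and 128 CPM with PTX, a log2 change of -0.44 (standard error 0.127, 95% interval -0.72 to -0.17, adjusted p = 0.0891). Lrrtm1 was measured at 10.6 and 11.3 CPM in control and 7.46 and 6.54 CPM with PTX, from 65 reads in each PTX library, a log2 change of -0.65 (standard error 0.183, 95% interval -1.05 to -0.24, adjusted p = 0.0876). In both genes each PTX library lay below each control library. With the replicate block the adjusted p was 0.00569 for Nrxn2 and 0.0176 for Lrrtm1, so that fit called 2 of the 8 genes lower, against 6.09% of all tested genes lower and 11.2% in either direction. Without replicate 2 of processes control, Nrxn2 passed (-0.59, adjusted p = 0.042).

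Lrrtm4 was measured at 2.9 and 3.52 CPM in process control libraries and 4.59 and 4.12 CPM with PTX, from 26 to 41 reads a library. The PTX libraries lay above the control ones, and the log2 change of 0.44 (95% interval -0.06 to 0.94, adjusted p = 0.369) did not pass. Lrrtm3 was at 11.8 and 12.6 CPM with PTX against 10.6 and 11.4 CPM in control, a log2 change of 0.15 (adjusted p = 0.754). Libraries did not overlap for these 2 genes, Nrxn2 and Lrrtm1, which were 4 of 8, as for 42.4% of all tested genes. The log2 change was 0.11 for Nrxn3 (37.8 and 27.2 CPM with PTX), -0.01 for Nlgn1 (61.0 and 70.8 CPM), -0.13 for Nlgn3 (54.4 and 76.7 CPM) and -0.08 for Lrrtm2 (17.3 and 12.5 CPM), with adjusted p between 0.814 and 0.993 for these 4 genes. For Nlgn1 the 95% interval was -0.32 to 0.31.

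**Figure D3:**
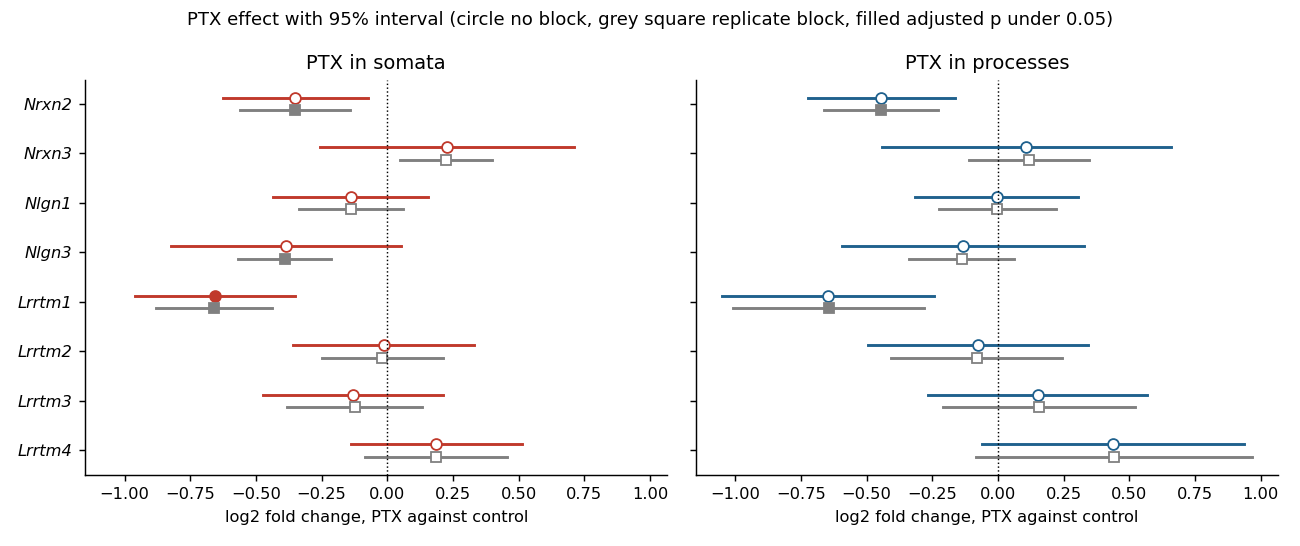
Log2 change with PTX against control (horizontal axis) for each of the 8 genes in somata (left) and processes (right). Circles are the fit without a block and grey squares the fit with the replicate block, lines are 95% intervals, and filled symbols have an adjusted p under 0.05. Lrrtm1 changed by -0.66 in somata and -0.65 in processes, and Lrrtm1 and Nrxn2 have filled squares on both sides.

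Whether PTX acted differently on the 2 sides of the filter was tested by the interaction, in which the somatic change is subtracted from the change in processes. None of the 8 genes passed in the quasi-likelihood test, each with an adjusted p of 1, and none of all tested genes did (0.00%). At an unadjusted p under 0.05 there were 0 of the 8 genes, against 4.0% of all tested genes, and the likelihood ratio test, DESeq2 and the fit with the replicate block (0.105% of all tested genes) also called 0 of the 8. For Lrrtm1 the difference of the log2 changes was 0.01 with a 95% interval of -0.51 to 0.53. The values for the other genes lay between -0.12 for Nrxn3 and 0.28 for Lrrtm3.

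The ratio of the reads of 2 genes within a library shows unequal change without any scaling. Lrrtm1 had 1.05 and 1.01 reads per Lrrtm2 read in somatic control libraries and 0.66 and 0.666 in somatic PTX libraries. In processes the ratio was 0.736 and 0.667 in control and 0.431 and 0.524 with PTX. The PTX libraries lay below the control libraries on each side of the filter, and the process libraries below the somatic libraries of the same treatment. The share of all gene pairs that lie apart was not counted. Single genes lay apart with PTX for 49.0% in somata and 42.4% in processes, and between compartments for 74.9% in control and 75.9% with PTX. Lrrtm4 had 0.501 and 0.623 reads per Lrrtm3 read in somatic control libraries and 0.708 and 0.667 with PTX, and 0.274 and 0.309 against 0.388 and 0.328 in processes. Nrxn3 had 0.773 and 0.514 reads per Nrxn2 read in somatic control libraries and 1.13 and 0.774 with PTX, and 0.184 and 0.151 in process control libraries and 0.285 and 0.212 with PTX. Here the ratio was higher with PTX in both replicate numbers of both compartments. The number of Nlgn3 reads per Nlgn1 read was 1.21 and 1.50 in somatic control libraries and 0.991 and 1.29 with PTX, with overlapping groups, and 1.08 and 1.09 against 0.893 and 1.08 in processes. It was lower with PTX in both replicate numbers of both compartments.

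**Figure D4:**
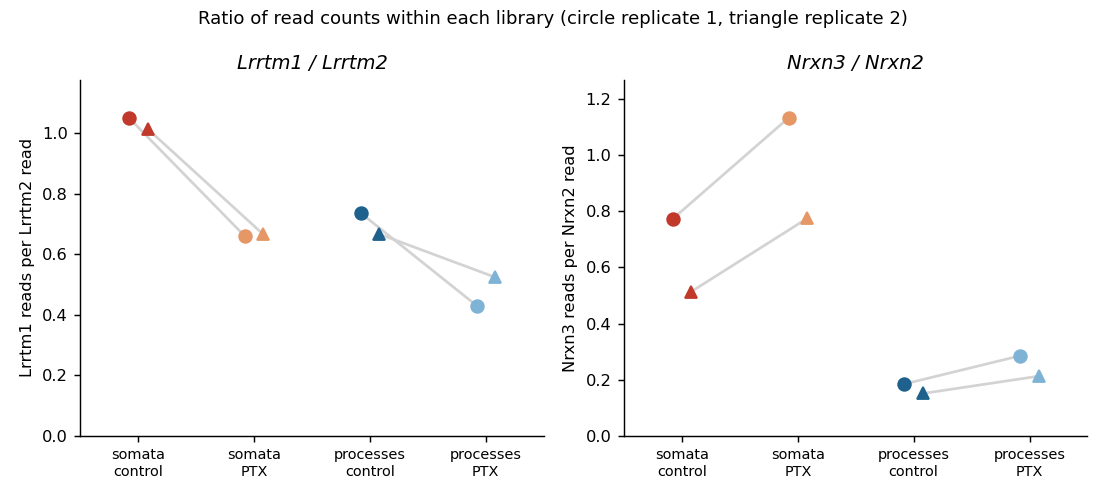
Reads of Lrrtm1 per Lrrtm2 read (left) and of Nrxn3 per Nrxn2 read (right) in each library (vertical axes, from 0) by condition (horizontal axis). Circles are replicate 1 and triangles replicate 2, and grey lines join libraries with the same number. The Lrrtm1 ratio falls from 1.05 and 1.01 to 0.66 and 0.666 with PTX in somata, and the Nrxn3 ratio rises with PTX in each joined pair.

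Marker levels of neuron types also differed between PTX and control libraries. The summed level of 5 excitatory markers was 313 to 322 CPM in somatic control libraries and 229 to 257 CPM with PTX, and in processes 159 to 205 CPM in control and 261 to 285 CPM with PTX. The sum of 6 inhibitory markers was 486 to 535 CPM in somatic control libraries and 598 to 659 CPM with PTX, and 265 to 299.9 CPM and 352 to 404 CPM in processes. None of these markers was at 0 in every library. Among all tested genes, 3.59% were called with PTX in somata (1.50% lower) and 3.74% in processes (2.10% lower). Of the 5 excitatory markers, 1 was called lower in somata (Neurod6, -1.64 on the log2 scale, adjusted p = 0.000785), and in processes 2 were called lower and 1 higher. Of the 5 inhibitory markers with enough reads, 2 were called higher in somata (Gad1, 0.82, adjusted p = 0.0247, and Gad2, 0.92, adjusted p = 0.0328) and 1 in processes. Slc17a7, a vesicular glutamate transporter gene, made up most of the excitatory sum in processes, at 171 and 131 CPM in control and 261 and 240.2 CPM with PTX, while the transcription factor genes Neurod6 (-1.34, adjusted p = 0.00818) and Neurod2 (-1.44, adjusted p = 0.0138) were lower there. The sum of 6 general neuronal markers was lower with PTX on both sides, at 1518 to 1657 CPM in control and 1309 to 1444 CPM with PTX in somata, and at 5078 to 5381 CPM and 3796 to 4443 CPM in processes. Map2 made up most of this sum, at 887 to 985 CPM in control and 812 to 861 CPM with PTX in somata. In processes it was at 4524 to 4693 CPM and 3369 to 3935 CPM. Of these 6 markers, 1 was called lower on each side, against 1.50% and 2.10% of all tested genes. Their median log2 change was -0.37 in somata (from -0.665 to -0.03) and -0.46 in processes (from -0.762 to -0.12). The part of these shifts in the values of the 8 genes was not tested.

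Lrrtm1, Lrrtm2 and Lrrtm3 overlap the genes of alpha-catenins, Ctnna2, Ctnna1 and Ctnna3, which link cadherins to actin, in the RefSeq table of assembly GRCr8. Whether reads were assigned by strand is not given in the sources used here, so reads of overlapping genes are of uncertain origin. Ctnna2, the host of Lrrtm1, was higher in processes by 1.39 on the log2 scale in control cultures (adjusted p = 4.11e-05) and by 1.41 with PTX (adjusted p = 3.37e-05), where Lrrtm1 was lower. Its log2 change with PTX was -0.03 in somata (adjusted p = 0.97) and -0.0019 in processes (adjusted p = 0.998). Ctnna1 was higher in processes by 0.83 and 0.89 (adjusted p = 9.06e-05 and 4.63e-05), and changed with PTX by 0.19 and 0.25 (adjusted p = 0.437 and 0.242). Both host genes thus lay on the other side of 0 from the Lrrtm genes within them in the compartment comparison with TMM scaling, and with total counts both were lower in processes too. Ctnna3 had 2 to 12 reads a library and was not tested. Nrxn3, Nlgn1 and Lrrtm4 overlap non-coding genes or a pseudogene in that table, and Nrxn2 and Nlgn3 overlap no other gene.

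With PTX the same lists were read against 3.59% of all tested genes called in somata (1.50% lower) and 3.74% in processes (2.10% lower). In somata, 2 of 26 other postsynaptic organizers were lower, Clstn2 (-1.05, adjusted p = 0.00146) and Cadm3 (-0.79, adjusted p = 0.00895), an immunoglobulin adhesion gene. Clstn2 was measured at 48.4 and 45.2 CPM in control and 25.1 and 20.1 CPM with PTX, with no overlap. Of the splicing regulators, Khdrbs3 (-0.82, adjusted p = 0.00311), which codes for a protein that acts on neurexin exons, and Rbfox3 (-0.67, adjusted p = 0.0221) were lower. Tenm3, a teneurin gene, was the 1 presynaptic ligand or receptor of 19 that was higher (0.64, adjusted p = 0.00903). With the replicate block, which called 14.0% of all tested genes in somata, 6 of these 19 were higher and 2 lower, and 1 of the 26 postsynaptic organizers was higher and 7 lower. None of the 23 intracellular partners was called in somata by the quasi-likelihood test, against 2 by the likelihood ratio test, 1 by DESeq2 and 6 with the replicate block. Mmp9, a protease that cuts neuroligins, was higher, from 4 and 2 reads in control to 40 and 33 reads with PTX (log2 change 3.46, 95% interval 2.32 to 4.6, adjusted p = 0.00518). It met the read minimum through the PTX libraries alone and had 0 to 10 reads in processes.

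In processes, 3 of the 26 other postsynaptic organizers were lower with PTX, Flrt3 (-0.95, adjusted p = 0.0171), Clstn2 (-0.77, adjusted p = 0.0101) and Cadm3 (-0.68, adjusted p = 0.0277). Shank1 (-1.12, adjusted p = 0.0135) and Shank2 (-1.06, adjusted p = 0.00308) were lower among the 23 intracellular partners, and the teneurin gene Tenm2 (-0.60, adjusted p = 0.0318) among the 19 presynaptic genes. Shank2 was measured at 143 and 112 CPM in control and 60.3 and 61.8 CPM with PTX, with no overlap. No protease or splicing regulator was called by the quasi-likelihood test, against 1 and 2 by the likelihood ratio test. With the block (11.2% of all tested genes), 8 of the 23 intracellular partners were lower, 4 presynaptic genes were higher and 1 was lower, 3 splicing regulators were lower, 1 protease or inhibitor was higher and 1 lower, and 3 postsynaptic organizers were lower. These counts rest on few libraries. The postsynaptic list had 0 calls without either PTX library of the processes and 1 without replicate 1 of processes control, and Tenm2 was called with 2 of the 8 libraries left out in turn and not with the other 6. In somata, Tenm3 was not called without replicate 2 of control or replicate 1 of PTX, and Mmp9 was not without replicate 2 of control. The 2 somatic calls of the postsynaptic list fell to 1 without replicate 1 of control or replicate 2 of PTX, and those of the splicing regulators to 1 without any of the 4 somatic libraries. The intracellular partners had up to 3 somatic calls with a process library left out. Their 2 calls in processes became 1 without either PTX library and 4 without replicate 2 of control.

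Nrxn3 and Nlgn3 also differed between the replicate numbers. Nrxn3 was higher in replicate 1 in each of the 4 conditions, for example 89.1 against 66.6 CPM in somata control, and Nlgn3 was higher in replicate 2 in each, for example 113 against 91.1 CPM. The sum of 8 oligodendrocyte-lineage markers was also higher in replicate 2 in each condition (454 against 295 CPM in somata control, 606 against 471 CPM in processes control), and the sums of the inhibitory, the excitatory and the general neuronal markers were each higher in replicate 1 in each. In somata control these were 535 against 486 CPM, 322 against 313 CPM and 1657 against 1518 CPM. What the numbers mark is not given in the sources used here, and the part of these markers in the Nrxn3 and Nlgn3 values was not tested.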

How the data were processed

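Gene counts were deposited by the authors as whole numbers without normalization. According to the study's methods, reads were trimmed with Trimmomatic, aligned with Subread and counted on Ensembl genes with featureCounts, and counts were summed to symbols. The submitters' processing notes name STAR, featureCounts and edgeR, and build Rnor_6.0. Deposited tables of the authors' own PTX comparisons (fold changes, p-values) were not used. A gene was tested if 2 or more libraries had over 20 reads of it, on all 8 libraries with 1 coefficient per condition, TMM scaling and the quasi-likelihood test of edgeR 4.0.16, checked on simulated data. Adjusted p-values are Benjamini-Hochberg over all tested genes, with a threshold of 0.05. Nothing says that libraries came from separate cultures, so p-values measure the spread between these libraries, which may be technical. PTX and compartment comparisons share libraries.

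Replicate numbers from the labels paired the libraries. Differences between replicate 2 and replicate 1 correlated across genes with r = 0.274 to 0.54 in each of the 6 pairs of conditions, and the block lowered the biological coefficient of variation from 11.5% to 6.77%. Alternatives included other scalings, filters, DESeq2 1.42.0, the likelihood ratio test, the block, and leaving out each library. The genes and lists were chosen with earlier results of these data known. Named list genes are the up to 3 called genes with the largest rise and fall in each list, and the alpha-catenins. Some genes of these families are not reported here. Median depth was 289.25 reads per tested gene in somata and 102.5 in processes.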

Additional observations from a re-analysis of the deposited data

How the results depend on the processing

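Among the log2 values of the 8 genes over all comparisons and settings, 346 stayed on the same side of the threshold with the same sign under alternatives that kept all libraries of a comparison, 11 changed sign, 32 passed anew and 3 no longer passed. With a library left out, 273 stayed, 29 changed sign, 9 passed anew and 9 no longer passed. The cause of these changes was not tested.

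For PTX in somata, 1 of the 8 genes was called, against 0 with library size only, 3 with the replicate block, and 0 to 1 with a library left out. For PTX in processes, 0 were called, against 2 without a filter, 2 with the likelihood ratio test, 2 with the replicate block, and 0 to 1 with a library left out. For processes against somata with PTX, 5 were called, against 8 with library size only. The block values that change a call of the 8 genes stand beside their results, and in the interaction the block changed no call of these genes.

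Sign changes of log2 values were as follows. With library size only, Lrrtm2 with PTX in somata was 0.052, Nlgn1 with PTX in processes 0.034, Nrxn2 in processes against somata -1.29 in control and -1.39 with PTX, and the Lrrtm1 interaction -0.00915. With counts outside the mitochondrial genome, Nlgn1 with PTX in processes was 0.00899 and Nrxn2 in processes against somata with PTX -0.017. Nlgn1 with PTX in processes was also 0.00616 with DESeq2 size factors, 0.00524 without a filter, 0.00597 with DESeq2 and 0.013 with the 4 libraries alone, against -0.0051.

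With 1 library left out, log2 values spanned 0 for these results. For PTX in somata, Nrxn3 ran from -0.0312 to 0.45, Lrrtm2 from -0.18 to 0.12 and Lrrtm3 from -0.36 to 0.12. For PTX in processes, Nrxn3 ran from -0.16 to 0.44, Nlgn1 from -0.20 to 0.22, Nlgn3 from -0.40 to 0.10 and Lrrtm2 from -0.33 to 0.15. Nlgn1 in processes against somata ran from -0.41 to 0.0065 in control and from -0.16 to 0.0509 with PTX. In the interaction, Nrxn2 ran from -0.24 to 0.0677, Nrxn3 from -0.39 to 0.21, Nlgn1 from -0.0582 to 0.36, Nlgn3 from -0.0177 to 0.49, Lrrtm1 from -0.11 to 0.17 and Lrrtm2 from -0.31 to 0.16.

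Depth limits Lrrtm4 and Lrrtm1 in processes most, with 26 to 41 and 65 to 96 reads a library.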

Other observations

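Over the 8 libraries, each of the 8 genes was set beside tested genes that averaged 5 CPM or more, and the 2 genes with the highest Pearson correlation of log2 CPM were taken. The points share libraries, compartment and depth, so these are descriptions over 8 points and 4 conditions. For Lrrtm1 these were Elmod1 (r = 0.994) and Wdr47 (r = 0.993), for Lrrtm4 Dnajc16 (r = 0.997) and Ahi1 (r = 0.996), and for Nrxn3 Dhcr7 (r = 0.996), an enzyme of cholesterol synthesis, and Slc4a10 (r = 0.995), a bicarbonate transporter. Lrrtm2 was closest to a gene without a common name and to Afdn (r = 0.994), and Lrrtm3 to Dync2h1 (r = 0.984) and Ssx2ip (r = 0.973). Nrxn2 was closest to Arhgef25 (r = 0.993) and Sarm1 (r = 0.992).

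For Nlgn1 the closest gene was Ptbp2 (r = 0.984), a splicing regulator of the list above, and the next was Prps1 at r = 0.945, the lowest value among these pairs. For Nlgn3 the closest were Vcan (r = 0.99), an extracellular matrix proteoglycan, and Retsat (r = 0.97). Among the 8 genes themselves, the correlation was 0.831 between Nlgn1 and Nlgn3 and 0.787 to 0.925 between Lrrtm genes. It was negative between Nrxn2 and each of the other 7 genes, from -0.877 to -0.252. These correlations used TMM scaling alone, and the sign of the Nrxn2 difference between compartments depends on the scaling.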
